A study of Mus musculus with 6 samples.

Results

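The proteasome genes described here are all genes of the expression table whose symbol starts with Psm, a letter from a to g and a digit, a choice that used no expression value. The pattern found 51 of 21959 genes. They are 14 subunits of the constitutive core, the 3 inducible subunits Psmb8, Psmb9 and Psmb10, 17 subunits of the 19S particle, 12 activators, inhibitors and assembly chaperones, 2 tissue-restricted core subunits, and 3 genes that share the name but are not proteasome subunits. Expression was measured in dorsal skin of mice treated with vehicle or rebamipide. Of the 51 genes, 50 passed the filter on low counts and were tested, and Psmb11 was not.

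The proteasome is the protease complex of the cytosol and nucleus that degrades proteins tagged with ubiquitin. Its 20S core is a barrel of stacked rings, in which alpha subunits form the gates and beta subunits the walls, and only some of the beta subunits carry an active site. The 19S regulatory particle caps the barrel, where its base of ATPases unfolds a substrate and its lid removes the ubiquitin chain. Interferons and cells of the immune system replace the catalytic beta subunits with inducible counterparts, which gives the immunoproteasome that cuts peptides for MHC class I.

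Rebamipide is a mucosal protective drug, and the study asked how its topical use acts on hair regrowth. The full thickness of the dorsal skin was used for RNA-seq, from male C57BL/6 mice 7 weeks of age with no transgene or deletion named in the labels. The fur was shaved in telogen, the resting phase of the hair cycle, and the skin was painted once a day for 7 days with vehicle (dipropylene glycol in water, n = 3 mice) or with 3% rebamipide (n = 3 mice). The mice were a cohort of their own, apart from those used for the other assays of the study.

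The 3 vehicle libraries held 38676018 to 39915276 counts and the 3 rebamipide libraries 32709801 to 34706852. Of all counts, 2.59% to 5.36% with vehicle and 13.3% to 21.96% with rebamipide fell on genes of mitochondrial DNA, so the groups differed in composition. Levels are given as CPM, counts relative to the size of the library, after TMM scaling, a procedure that sets libraries level on the bulk of their genes. On this scale the median log2 fold change of the 14875 genes tested was -0.17, and by total counts alone it was -0.78. The labelled tissue was checked against marker genes. The 7 basal keratinocyte markers summed to 2511 to 4051 CPM with vehicle and to 144 to 1183 CPM with rebamipide (none passed the test in edgeR). The 7 growing hair follicle markers summed to 15700, 7056 and 169 CPM with vehicle and to 871, 0.39 and 0 CPM with rebamipide, so the vehicle libraries, of skin shaved in telogen, differed among themselves. In the third rebamipide library the epidermal genes Krt14, Krt15, Flg and Dsg1a had 0 counts, and there and in the second rebamipide library 4 hair follicle keratins (Krt71, Krt73, Krt25 and Krt27) had 0 counts. The third rebamipide library therefore lacked defining markers of the epidermis and goes against its label of skin, so its tissue is in doubt. The 8 brown fat markers summed to 213.6 to 384 CPM with vehicle and to 5037 to 12950 CPM with rebamipide and 6 of the 8 rose in edgeR, and the gene of uncoupling protein, Ucp1, had 0 counts in each vehicle library and 81048 to 220449 counts with rebamipide. Elovl3 of the same list was lower in each rebamipide library (176, 128 and 238 against 82.3, 83.1 and 33.3 CPM, -1.45 ± 0.42 on the log2 scale, edgeR adjusted p = 0.0575). The 8 general adipocyte markers summed to 1650 to 3786 CPM with vehicle and 11560 to 24940 CPM with rebamipide (7 rose), the 6 endothelial markers to 204 to 460 and 1016 to 1480 CPM (4 rose), and the 6 fibroblast markers to 12000 to 17730 CPM with vehicle and to 15100, 3502 and 1849 CPM with rebamipide (none passed). The 5 slow skeletal muscle markers summed to 7.65, 13.2 and 1.88 CPM with vehicle and to 256, 113 and 5.19 CPM with rebamipide (3 rose). These are whole-tissue libraries, in which fewer cells of a type and less RNA per cell cannot be told apart. The part of these differences in the results that follow was not tested.

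Across the proteasome genes the differences between the groups were small. At an adjusted p-value under 0.05 (edgeR quasi-likelihood test, adjusted over all genes tested), 2 of the 50 genes rose, where 14.1% of all genes did, and 1 fell, where 6.51% of all genes did. The genes that rose were Psme2, a subunit of the PA28 activator, and its retrocopy Psme2b. The gene that fell was Psme4, which encodes the activator PA200. None of the core, inducible or 19S subunits passed in edgeR, and 5, 0 and 2 of them had an unadjusted p under 0.05. Among all 50 genes 12 had one, where 39.7% of all genes did. The SD of the log2 fold changes was 0.434 over the 50 genes and 1.54 over all genes tested, and 40 of the 50 lay within the middle 50% of all genes. At the study's threshold of an unadjusted p under 0.05 with an absolute log2 fold change over 1, edgeR gave 1 gene higher (Psme2b) and 1 lower (Psme4), against 14.3% and 14.5% of all genes. DESeq2, the tool of the study, called 10 of the 50 higher and 1 lower, against 18.3% and 17.0% of all genes. The 10 called higher were Psma6, Psmb3, Psmb5, Psmb7, Psmd4, Psmd8, Psme1, Psme2, Psmg1 and Psme2b. Limma-voom called 4 higher and 1 lower, against 14.4% and 6.94% of all genes, and limma on log2(FPKM + 1), where libraries are level on their totals, called none higher (9.42% of all genes) and 16 lower (32.3%). The count of calls moved with single libraries, and so did that of all genes. Without the first rebamipide library edgeR called 8 of the 50 higher and 1 lower, against 18.3% and 12.8% of all genes. Without the third rebamipide library it called none of the 50 (5 at an unadjusted p under 0.05), against 9.1% of all genes. Without the second rebamipide library it called 1 gene of the whole table (0.00652%) and without the second vehicle library 0 genes, so these fits say nothing of the proteasome genes in particular.

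**Figure D1:**
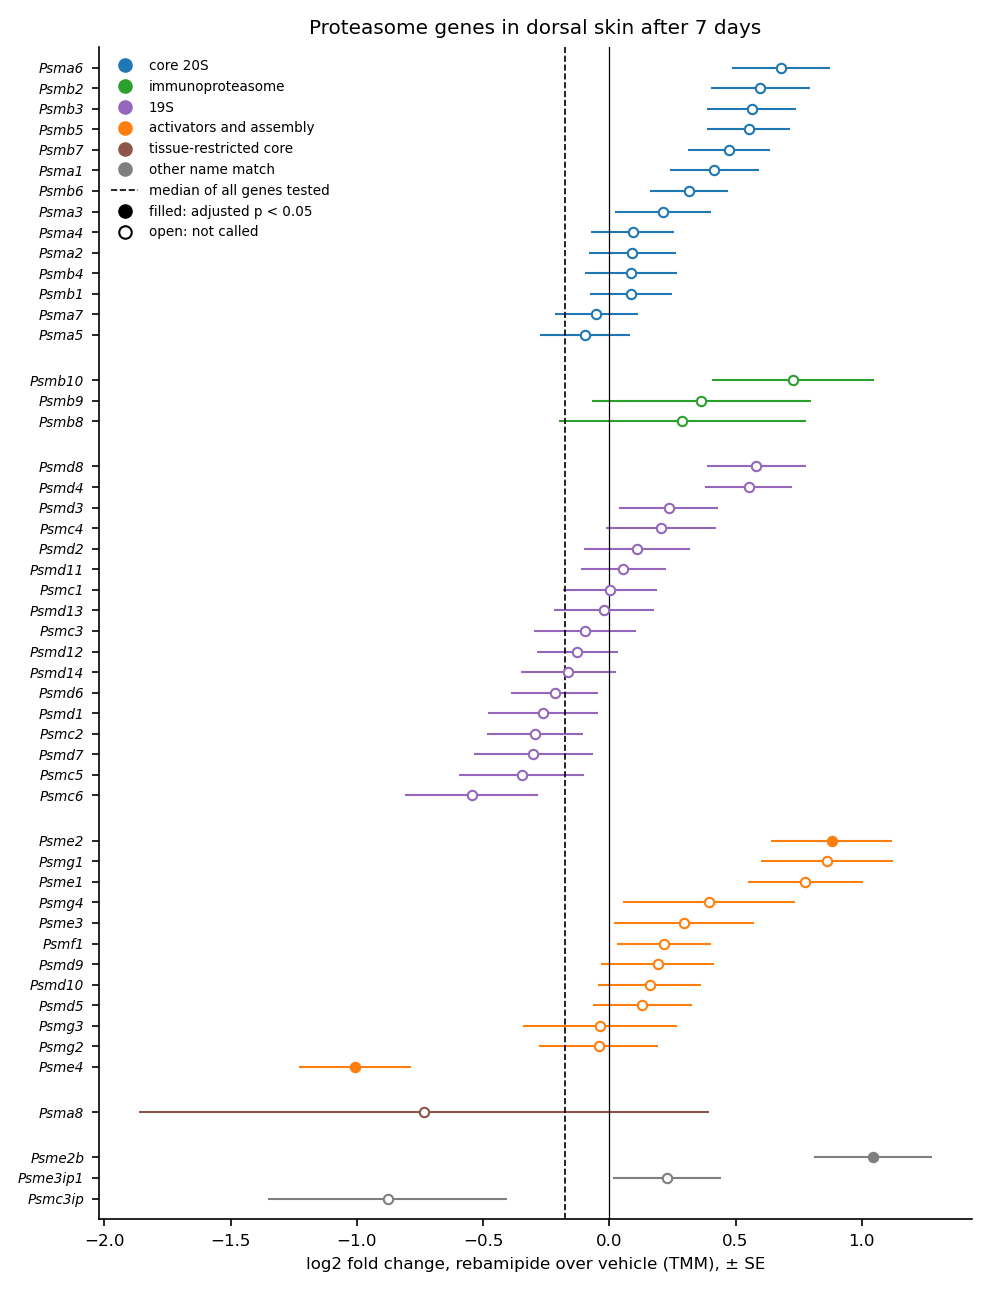
Log2 fold change of the 50 tested proteasome genes (x axis, rebamipide over vehicle on the TMM scale, bars are the standard error of edgeR, n = 3 libraries a group), by group of genes from top to bottom. Filled points passed an adjusted p-value under 0.05 (Psme2, Psme2b and Psme4), and the dashed line is the median of all genes tested, -0.17.

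The alpha and beta subunits of the constitutive core lay above the median of all genes. All 14 had a log2 fold change above that median, between -0.10 and 0.68, and the median of the 14 was 0.26. In 7 of the 14 (Psma1, Psma6, Psmb2, Psmb3, Psmb5, Psmb6 and Psmb7) each rebamipide library was above each vehicle library, where 24.5% of all genes showed such a gap upward, and none of the 14 showed it downward, where 24.0% of all genes did. The sign of this difference depended on the scale. By total counts alone the median of the 14 was -0.36, none was above in every rebamipide library (13% of all genes), 8 were below in every rebamipide library (47.9% of all genes), and edgeR called none of them higher (8.45% of all genes) and 2 lower (25.2% of all genes). Relative to the median of all genes the core median was 0.44 higher with TMM and 0.42 higher by total counts. Without the third rebamipide library the core median was 0.28, or 0.42 above the median of all genes, and without the first rebamipide library edgeR called 5 of the 14 higher, against 18.3% of all genes.

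Within the core the median log2 fold change was 0.47 for the 7 beta subunits and 0.09 for the 7 alpha subunits. In the alpha ring the smallest p-value was that of Psma6 (alpha 1), which was at 149.7, 149.6 and 164 CPM with vehicle and 210.0, 272 and 259 CPM with rebamipide. Every rebamipide value lay above every vehicle value, and the log2 fold change of 0.68 ± 0.19 (SE) just missed the threshold in edgeR (adjusted p = 0.0542), while DESeq2 (adjusted p = 0.0171) and limma-voom (adjusted p = 0.0427) called it higher. In the beta ring the structural subunit Psmb3 (beta 3) was at 112, 94.4 and 92.2 CPM with vehicle and 136, 156 and 149 CPM with rebamipide, without overlap (0.56 ± 0.18, edgeR adjusted p = 0.067). Psma5 (alpha 5) had the lowest fold change of the ring subunits, at 81.4, 73.1 and 71.8 CPM with vehicle and 80.6, 70.6 and 60.6 CPM with rebamipide, and its groups overlapped.

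The levels of the subunits differed far more than the groups did. On the FPKM scale, which divides counts by the gene length of the table and the library total, Psma6 was the highest of the 14 core subunits in all 6 libraries, with 149.6 to 165 FPKM. Psma3 (alpha 7) was the lowest in all 6, with 19.2 to 28.4 FPKM. Both ranks depend on the gene lengths, 1234 bases for Psma6 and 3894 for Psma3. In CPM, which leaves out length, Psma3 had a vehicle mean of 86.3, above the 43.4 of Psmb5 (899 bases). The share of Psma6 in the summed FPKM of the alpha ring was 33.6%, 35.9% and 37.6% with vehicle and 42.0%, 46.2% and 47.5% with rebamipide. The other alpha subunits took the rest, and Psma5 took 15.4% to 17.0% with vehicle and 10.4% to 15.1% with rebamipide. In the beta ring Psmb4 (beta 7) ranked 2 of the 14 core subunits in each vehicle library and 2 to 4 with rebamipide. These shares do not depend on how the libraries were scaled, but like the ranks they depend on the gene lengths.

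The promoters of a catalytic pair are shown so that the constitutive and the inducible form of one site can be set side by side. The 250 bases before the start of Psmb5 (the constitutive chymotrypsin-like site) and of Psmb8 (its inducible counterpart) are shown with 1 motif each in capitals. The stretch of Psmb5 is chr14:54617996-54618245 on the minus strand, and the capitals mark an antioxidant response element (TGACNNNGC), which the factor NRF1 is known to bind. That of Psmb8 is chr17:34197945-34198194 on the plus strand, and the capitals mark a gamma-activated site (TTCNNNGAA), a motif of genes that interferon gamma is known to induce. Both are RefSeq sequences of build GRCm38.p6, written 5′ to 3′ on the strand of the gene.
Psmb5: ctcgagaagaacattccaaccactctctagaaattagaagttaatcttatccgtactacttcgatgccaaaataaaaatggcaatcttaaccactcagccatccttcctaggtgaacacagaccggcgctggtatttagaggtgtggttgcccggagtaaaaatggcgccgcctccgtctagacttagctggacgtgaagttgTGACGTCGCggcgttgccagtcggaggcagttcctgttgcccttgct
Psmb8: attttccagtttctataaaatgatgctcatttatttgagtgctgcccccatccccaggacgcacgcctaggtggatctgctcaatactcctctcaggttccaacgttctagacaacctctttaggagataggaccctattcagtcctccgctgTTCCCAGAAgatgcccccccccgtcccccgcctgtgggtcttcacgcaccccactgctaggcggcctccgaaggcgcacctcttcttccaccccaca
The element of Psmb5 ends 39 bases before the start, and the site of Psmb8 ends 89 bases before it.

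A match is a description and not a binding site. Both strands of the RefSeq promoters, from 250 bases before to 50 bases after each start, were searched for 6 motifs, with earlier results of these data and the counts of matches known when these examples were picked. A promoter was found for 43 of the 51 genes. The antioxidant response element was found in 6 of the 43 (Psmb5, Psmb6, Psmc6, Psmd12, Psmd9 and Psme4) and in 12.4% of all 32851 promoters. The gamma-activated site was found in 3 (Psmb8, Psmd2 and Psmg1) and in 8.3% of all promoters, and an interferon-stimulated response element (GAAA, 2 bases of any kind and GAAA again) in 5 (Psmb3, Psmd4, Psmd9, Psme1 and Psmg4) and in 3.44%. The core motif of ETS factors (CCGGAAG) was in 16 of the 43, among them Psma6, Psmd4, Psme4 and Psmg1, and in 8.86% of all promoters. CCAAT was in 16 of the 43 and 37.4% of all, and TATAAA in 4 of the 43 and 13.6% of all. Matches of the 4 motifs other than CCAAT and TATAAA did not overlap each other in the promoters of the 43 genes.

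The 3 constitutive catalytic subunits were each above in every rebamipide library, where 24.5% of all genes were, and none passed the test in edgeR (14.1% of all genes rose). Psmb5 was at 44.7, 42.7 and 42.6 CPM with vehicle and 55.5, 67.6 and 67.6 CPM with rebamipide (0.55 ± 0.16, edgeR adjusted p = 0.0594, DESeq2 adjusted p = 0.0409). Psmb6, the caspase-like site, was at 102, 92.8 and 93.2 CPM and 123, 116 and 119 CPM (0.32 ± 0.15, edgeR adjusted p = 0.178). Psmb7, the trypsin-like site, was at 92.3, 80.5 and 81.7 CPM and 113, 125 and 115 CPM (0.47 ± 0.16, edgeR adjusted p = 0.0806, DESeq2 adjusted p = 0.0493). By total counts alone their log2 fold changes were -0.08, -0.30 and -0.15. Psmb7 overlaps Nek6 on the other strand, and whether the counting used strand is not given in the sources used here. In all, 14 of the 51 genes overlap another gene of the table, and their counts are uncertain to that extent.

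Of the inducible catalytic subunits, Psmb8 and Psmb9 varied more within a group than between the groups. Psmb8 was at 8.71, 19.5 and 25.5 CPM with vehicle and 33.3, 16.8 and 15.6 CPM with rebamipide, and Psmb9 (counterpart of Psmb6) at 6.89, 13.1 and 17 CPM and 22.7, 13.7 and 11.2 CPM. For both, the lowest library was the first vehicle library, the highest was the first rebamipide library, and the groups overlapped. Psmb10 (counterpart of Psmb7) was at 10.2, 16.6 and 21.2 CPM and 31.6, 24.9 and 23 CPM, without overlap. The log2 fold changes were 0.29 ± 0.49 for Psmb8, 0.36 ± 0.43 for Psmb9 and 0.73 ± 0.32 for Psmb10, with edgeR adjusted p-values of 0.68, 0.552 and 0.144. The standard errors, with a median of 0.433, were wider than those of the core subunits, with a median of 0.174. The median of the 3 was 0.36 with TMM and -0.20 by total counts. Leaving out the first rebamipide library brought it to 0.02 and the fold change of Psmb8 to -0.14. Without the first vehicle library the median was 0.06, without the third vehicle library 0.69 and without the third rebamipide library 0.57.

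The markers of several cell types stood in the same order as Psmb8 and Psmb9 within each group, but not over all 6 libraries. The summed level of the 8 leukocyte markers was 329, 797 and 987 CPM in the vehicle libraries and 703, 341 and 212 CPM in the rebamipide libraries, so the first vehicle library was lowest of the vehicle group and the first rebamipide library highest of the rebamipide group, as for Psmb8 and Psmb9, while over all 6 the sum was highest in the third vehicle library and lowest in the third rebamipide library. The fast muscle, fibroblast and suprabasal keratinocyte markers had the same order within the groups, and of these the fast muscle sum (5985, 25810 and 30910 CPM with vehicle and 39500, 8265 and 304 CPM with rebamipide) was, like Psmb8, highest in the first rebamipide library. None of the 8 leukocyte markers passed the test in edgeR, none was at 0 counts in every library of a group, and Ptprc, which encodes CD45, was at 8.07, 26.2 and 30.9 CPM with vehicle and 10.3, 6.15 and 2.52 CPM with rebamipide. The part of leukocyte, muscle or other cell content in the inducible subunits was not tested. Psmb9 shares 212 bases with Tap1 on the other strand.

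Set against their constitutive counterparts, the inducible subunits made up a small and variable share of the FPKM. Of the summed FPKM of the 6 catalytic subunits, the inducible forms took 7.37%, 13.6% and 16.9% with vehicle and 17.7%, 11.8% and 10.9% with rebamipide, and the groups overlapped. The log2 ratio of Psmb8 to Psmb5, from counts per kilobase, was -3.32 ± 0.846 (SD, n = 3) with vehicle and -3.53 ± 0.766 with rebamipide. For Psmb9 to Psmb6 it was -4.02 ± 0.741 and -3.94 ± 0.493, and for Psmb10 to Psmb7 it was -1.47 ± 0.639 and -1.16 ± 0.281. By two-sided exact permutation tests the 3 differences (-0.21, 0.08 and 0.31) had p = 0.9, 0.9 and 0.6, all 0.9 after adjustment over the 3, and 3 against 3 libraries cannot give a p below 0.1. Psmb10 was the highest of the inducible forms relative to its partner, with an FPKM ratio to Psmb7 of 0.221 to 0.56, while that of Psmb8 to Psmb5 was 0.0518 to 0.159.

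**Figure D2:**
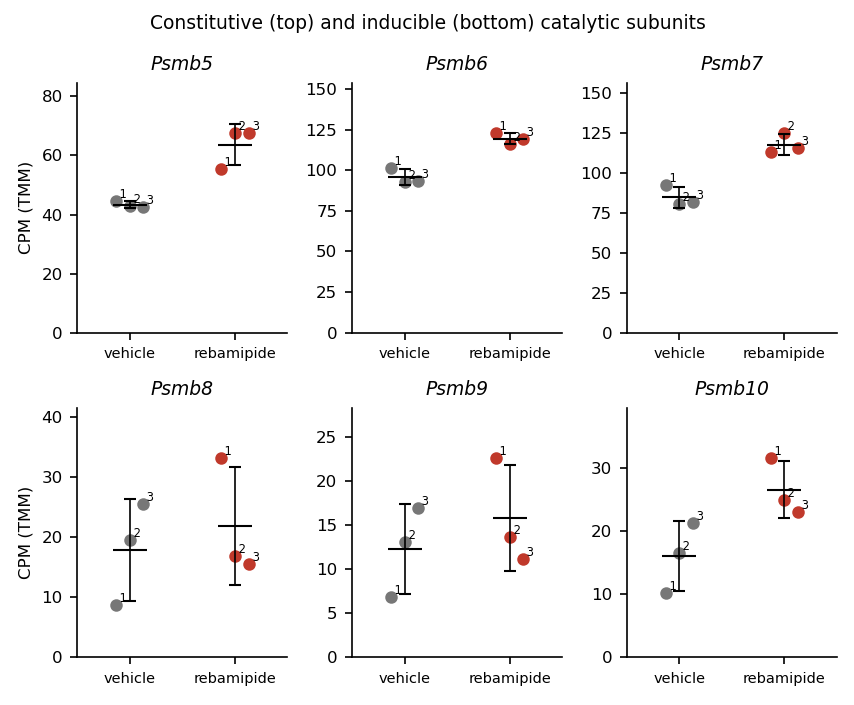
Level of the constitutive catalytic subunits (top) and of their inducible counterparts (bottom) in each library (y axis, CPM after TMM scaling, numbers are replicates, bars are the mean and SD, n = 3). In the top row and for Psmb10 the groups do not overlap, and for Psmb8 (8.71 to 33.3 CPM) and Psmb9 (6.89 to 22.7 CPM) they do.

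The 19S subunits were spread on both sides of 0. None of the 17 passed the test in edgeR, where 14.1% of all genes rose and 6.51% fell. DESeq2 called 2 of the 17 higher, against 18.3% of all genes. Of the 17, 7 had a positive and 10 a negative log2 fold change, and their median was -0.10, which is 0.08 above the median of all genes. The ATPases of the base had a median of -0.20 (6 genes), its other subunits 0.11 (3 genes) and the lid -0.07 (8 genes). By total counts alone the median of the 17 was -0.70, all 17 were negative and edgeR called 6 lower, against a median of -0.78 and 25.2% called lower over all genes. Without the third rebamipide library the TMM median was 0.00.

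Of the 17 19S subunits 2 stood above in every rebamipide library, where 24.5% of all genes did. Psmd4 (Rpn10), a ubiquitin receptor of the particle, was at 140.1, 120.0 and 121 CPM with vehicle and 178, 192 and 189 CPM with rebamipide (0.55 ± 0.17, edgeR adjusted p = 0.067, DESeq2 adjusted p = 0.0228). Psmd8 (Rpn12), a lid subunit, was at 169.9, 170.2 and 147 CPM and 208, 262 and 260.4 CPM (0.58 ± 0.20, edgeR adjusted p = 0.08, DESeq2 adjusted p = 0.0403). Both were called by DESeq2 and, without the first rebamipide library, by edgeR (adjusted p = 0.044 and 0.033). In the other 5 omissions the edgeR adjusted p was 0.06 to 0.22 for Psmd4 and 0.0923 to 0.245 for Psmd8, and DESeq2 called no 19S subunit higher without the second vehicle or the third rebamipide library. Their direction turned by total counts alone, with log2 fold changes of -0.07 and -0.05.

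Among the ATPases, Psmc6 (Rpt4) and Psmc2 (Rpt1) were below in every rebamipide library, the only 2 of the 17 that were, where 24.0% of all genes lay so. Psmc6 was at 77, 76.8 and 80.9 CPM with vehicle and 35.2, 66.5 and 59.1 CPM with rebamipide, so that the first rebamipide library was the lowest. Its log2 fold change of -0.55 ± 0.26 did not pass in edgeR with TMM (adjusted p = 0.17), and by total counts alone it was -1.20 and passed (adjusted p = 0.0138). Psmc2 was at 140.3, 122 and 114 CPM and 114, 106 and 87.2 CPM (-0.29 ± 0.19, edgeR adjusted p = 0.283). As a ratio to the ATPase Psmc1 (Rpt2), which no scaling moves, the FPKM of Psmc6 was 0.227, 0.27 and 0.311 with vehicle and 0.124, 0.216 and 0.202 with rebamipide. This ratio and the others to a partner outside the catalytic pairs were chosen after values were seen and were not tested. By FPKM Psmc5 (Rpt6) had the highest mean of the 17 over the 6 libraries, with 53.2 to 177 FPKM, and ranked 1 in each vehicle library and 1, 2 and 3 with rebamipide. The lid subunit Psmd11 (Rpn6) had the lowest mean over the 6, with 12.1 to 23.3 FPKM, and ranked 17 in each vehicle library and 15, 17 and 16 with rebamipide, where Psmc6 and Psmd1 had lower means. These ranks also depend on the gene lengths, 1394 bases for Psmc5 and 6383 for Psmd11. In CPM the groups of both overlapped, and their log2 fold changes were -0.35 ± 0.25 (edgeR adjusted p = 0.326) and 0.06 ± 0.17 (edgeR adjusted p = 0.822).

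Within each library the transcripts of the 19S subunits were lower relative to those of the core with rebamipide. The mean FPKM per 19S subunit divided by that per core subunit was 1.01, 0.922 and 0.859 with vehicle (mean 0.931 ± 0.0767, SD) and 0.787, 0.719 and 0.67 with rebamipide (0.725 ± 0.0589). Each rebamipide library lay below each vehicle library. The summed level of the 7 basal keratinocyte markers, at 2511, 4051 and 3467 CPM with vehicle and 1183, 724 and 144 CPM with rebamipide, was also lower in each rebamipide library. That of the 7 growing hair follicle markers was highest in the first vehicle library and lowest in the third rebamipide library, as the quotient was. Neither sum followed the order of the quotient over all 6 libraries. The sum of the 8 adipocyte markers rose in the order in which the quotient fell (1650, 2570 and 3786 CPM with vehicle, 11560, 21730 and 24940 CPM with rebamipide). So did the endothelial sum (204 to 1480 CPM) and the share of counts on mitochondrial DNA (2.59% to 21.96%). The part of these cell types and of the mitochondrial share in the quotient was not tested. This quotient is the same under any scaling of the libraries. It was not tested, since it is a summary over genes chosen by name.

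The activators that bind the core in place of the 19S particle gave the genes that passed the test. Psme1 and Psme2 encode the alpha and beta subunits of PA28, which interferon gamma is known to induce and which opens the core for short peptides. Psme2 lies at chr14:55824898-55828570 and Psme1 at chr14:55815580-55818986 of the table (GRCm39 by the submitters' processing notes). Psme2 was at 45.5, 58.1 and 79.6 CPM with vehicle and 107, 116 and 114 CPM with rebamipide, and Psme1 at 47.9, 58.1 and 79.97 CPM and 109, 103 and 107 CPM. All rebamipide libraries of both genes lay above all vehicle libraries, and within the vehicle group the first library was lowest and the third highest. The log2 fold change of Psme2 was 0.88 ± 0.24 (SE, edgeR adjusted p = 0.0483) and that of Psme1 0.78 ± 0.23 (edgeR adjusted p = 0.0575, or 0.0315 without the third vehicle library and 0.0747 to 0.208 in the other 5 omissions). The FPKM ratio of Psme1 to Psme2 was 0.84, 0.799 and 0.802 with vehicle and 0.81, 0.709 and 0.747 with rebamipide.

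The call of Psme2 was near the threshold. It was lost with 5 of the 6 libraries left out in turn (edgeR adjusted p of 0.0564 to 0.181) and kept without the third vehicle library. It was also lost with RLE scaling (edgeR adjusted p = 0.0548), by total counts alone (0.349, with a log2 fold change of 0.27) and with limma on log2(FPKM + 1) (0.287). DESeq2 (adjusted p = 0.0229) and limma-voom (adjusted p = 0.0403) called it higher. Psme2b at chr11:48836181-48837017 has a single 837-base exon and is a copy of Psme2, so some reads may fit either gene and both values are uncertain. All 837 bases of Psme2b also overlap the gene Gm12185 on the same strand, which adds to the uncertainty of its counts. Psme2b was at 16.1, 20.5 and 26.7 CPM with vehicle and 43.6, 42.3 and 45 CPM with rebamipide (1.05 ± 0.23, edgeR adjusted p = 0.0295), also without overlap, and it was 0.44 on the log2 scale by total counts (edgeR adjusted p = 0.166). Its call was lost with 4 of the 6 libraries left out in turn, the first or the second vehicle library and the second or the third rebamipide library (edgeR adjusted p of 0.0553 to 0.136).

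Psme3 encodes PA28 gamma, the nuclear form of the activator, and did not pass. It was at 171, 112 and 94.6 CPM with vehicle and 130.2, 173 and 159.9 CPM with rebamipide, and the first vehicle library was close to the second rebamipide library (0.30 ± 0.28, edgeR adjusted p = 0.448). Psmf1, which encodes the inhibitor PI31, was at 28, 21.9 and 24.8 CPM and 30.1, 27.4 and 29.1 CPM (0.22 ± 0.19, edgeR adjusted p = 0.414). The groups of both genes overlapped.

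With TMM scaling, Psme4 was the only proteasome gene that fell at an adjusted p-value under 0.05 in edgeR. By total counts alone 9 of the 50 fell, against 25.2% of all genes. Psme4 encodes PA200, a single-chain activator of the nucleus known for the degradation of acetylated histones, and lies at chr11:30721726-30830361 of the table. Psme4 was at 85.8, 102 and 106 CPM with vehicle and 37.8, 59.2 and 49.2 CPM with rebamipide, and the highest rebamipide library lay well under the lowest vehicle library. The log2 fold change was -1.01 ± 0.22 (edgeR adjusted p = 0.0285), which is a fold of 0.497. It was called lower with DESeq2 (adjusted p = 0.00359), limma-voom (adjusted p = 0.0262), total counts alone in edgeR (-1.64, adjusted p = 0.00849) and limma on log2(FPKM + 1) (adjusted p = 0.00577). The call was lost in edgeR without the second (adjusted p = 0.105) or the third vehicle library (0.0522) and without the second (0.0744) or the third rebamipide library (0.0887), with fold changes of -0.85 to -1.17 over all 6 omissions. Relative to Psme3 the FPKM of Psme4 was 0.177, 0.32 and 0.396 with vehicle and 0.102, 0.12 and 0.108 with rebamipide.

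The promoters of Psme4 and of the assembly chaperone Psmg1, the lowest and the highest log2 fold change among the activators and chaperones outside PA28, are shown with the ETS core motif and, for Psmg1, the gamma-activated site in capitals. They are the 250 RefSeq bases before the start in build GRCm38.p6, at chr11:30771525-30771774 on the plus strand and at chr16:95990961-95991210 on the minus strand.
Psme4: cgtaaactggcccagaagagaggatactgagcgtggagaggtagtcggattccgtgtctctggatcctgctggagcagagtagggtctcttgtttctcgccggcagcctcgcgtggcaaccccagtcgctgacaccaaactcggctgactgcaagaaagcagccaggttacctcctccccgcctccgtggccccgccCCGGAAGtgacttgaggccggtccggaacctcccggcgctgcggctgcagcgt
Psmg1: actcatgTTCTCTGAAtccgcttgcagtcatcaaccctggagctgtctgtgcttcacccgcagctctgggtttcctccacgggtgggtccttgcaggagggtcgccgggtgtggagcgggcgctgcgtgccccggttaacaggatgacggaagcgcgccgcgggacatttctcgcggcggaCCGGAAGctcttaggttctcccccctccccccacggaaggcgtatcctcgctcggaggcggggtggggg
The ETS core of Psme4 ends 47 bases and that of Psmg1 ends 63 bases before the start, and the gamma-activated site of Psmg1 ends 235 bases before it.

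The chaperones that start the assembly of the core gave unlike values. Psmg1 (PAC1) and Psmg2 (PAC2) form the dimer on which the alpha ring is put together. Psmg1 was at 21, 14.7 and 12.8 CPM with vehicle and 25.4, 29.8 and 33.1 CPM with rebamipide, without overlap, and Psmg2 was at 27.5, 20.4 and 18.1 CPM and 20.1, 23.5 and 20.4 CPM, with overlap. Psmg1 had a log2 fold change of 0.86 ± 0.26 (edgeR adjusted p = 0.0619, or 0.0369 without the first vehicle library and 0.0507 to 0.189 in the other 5 omissions, DESeq2 adjusted p = 0.0259) and Psmg2 of -0.04 ± 0.23 (edgeR adjusted p = 0.903). Within each library the FPKM ratio of Psmg1 to Psmg2 was 0.988, 0.931 and 0.919 with vehicle (0.946 ± 0.0367) and 1.63, 1.64 and 2.097 with rebamipide (1.79 ± 0.266), and the groups were far apart beside their spread. The ratio needs no scaling of the libraries and was not tested.

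The other chaperones of the core were low and overlapped between groups. Psmg3 (PAC3) was at 3.84, 3.06 and 3.21 CPM with vehicle and 2.77, 3.54 and 3.55 CPM with rebamipide, and Psmg4 (PAC4) at 3.52, 2.78 and 3.98 CPM and 3.23, 5.06 and 5.22 CPM. Their log2 fold changes were -0.04 ± 0.30 (edgeR adjusted p = 0.935) and 0.39 ± 0.34 (edgeR adjusted p = 0.412). The chaperones of the 19S base, Psmd5, Psmd9 and Psmd10 (gankyrin), had log2 fold changes of 0.13 ± 0.19, 0.19 ± 0.22 and 0.16 ± 0.20, with edgeR adjusted p-values of 0.638, 0.545 and 0.578. Psmd5 was at 49.9, 40.3 and 35.1 CPM and 42.5, 48.2 and 46.5 CPM, Psmd9 at 27.2, 21 and 19.5 CPM and 25.7, 29.2 and 22.5 CPM, and Psmd10 at 17.8, 18.6 and 17.9 CPM and 17.2, 20.6 and 22.7 CPM. The groups of all 3 overlapped.

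**Figure D3:**
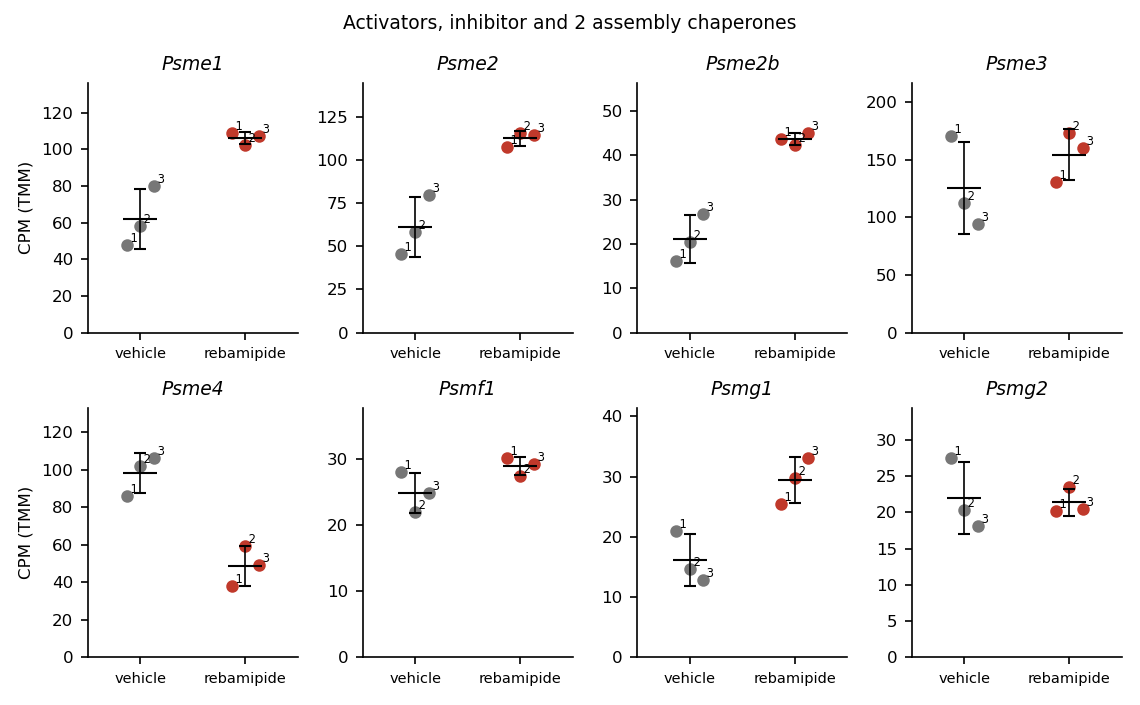
Level of the activators, of the inhibitor Psmf1 and of the chaperones Psmg1 and Psmg2 in each library (y axis, CPM after TMM scaling, numbers are replicates, bars are the mean and SD, n = 3). Psme1, Psme2, Psme2b and Psmg1 lie above in every rebamipide library and Psme4 below (37.8 to 59.2 against 85.8 to 106 CPM).

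The tissue-restricted core subunits were close to absent. Psma8, the alpha subunit of the testis, had 4, 18, 12, 10, 0 and 2 counts in the 6 libraries, vehicle first, and a log2 fold change of -0.73 ± 1.13 (edgeR adjusted p = 0.65). Psmb11, the beta subunit of the thymic cortex, had 1, 0, 0, 0, 2 and 0 counts and was not tested. A library with 0 counts allows up to 3. The genes that share only the name gave no call apart from Psme2b. Psmc3ip (HOP2), a factor of meiotic recombination, was at 7.39, 3.57 and 2.93 CPM with vehicle and 3.00, 2.8 and 1.75 CPM with rebamipide (-0.88 ± 0.47, edgeR adjusted p = 0.214), and Psme3ip1, a partner of PA28 gamma, was at 46.9, 38.6 and 31.1 CPM and 40.9, 50.5 and 45.1 CPM (0.23 ± 0.21, edgeR adjusted p = 0.449). The groups of both overlapped.

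**Figure D4:**
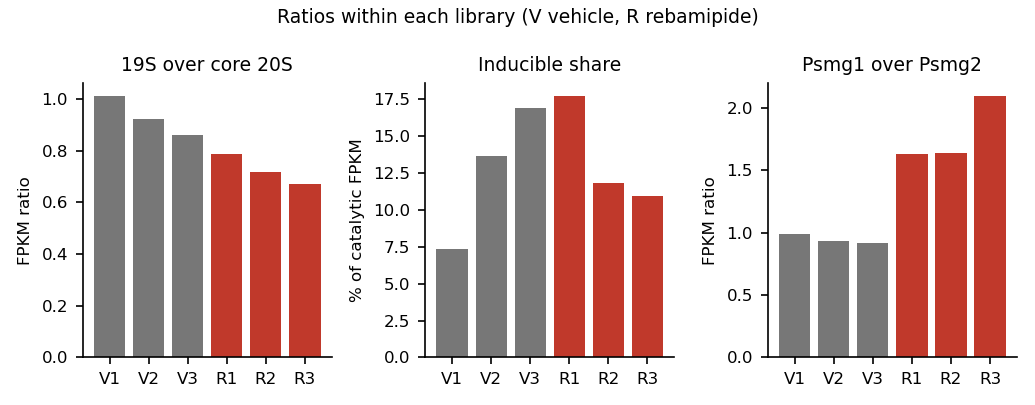
Quantities that no scaling of the libraries can move, one bar for each library (V vehicle, R rebamipide). The left panel is the mean FPKM per 19S subunit over that per core subunit (0.859 to 1.01 against 0.67 to 0.787), the middle panel the inducible share of the catalytic FPKM in % (overlapping), and the right panel the FPKM ratio of Psmg1 to Psmg2 (0.919 to 0.988 against 1.63 to 2.097).

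Genes that work with the proteasome were called about as often as all genes. Of the 27 listed genes found in the table (ubiquitin genes, shuttle factors, 19S-associated proteins and regulators), all tested, 3 rose and 2 fell in edgeR, against 14.1% and 6.51% of all genes, and their median log2 fold change was 0.09. The shuttle factor Ubqln4 was at 73.9, 59.3 and 59.1 CPM with vehicle and 106, 156 and 160.2 CPM with rebamipide and rose (1.13 ± 0.23, edgeR adjusted p = 0.0236), and by total counts alone it was not called (edgeR adjusted p = 0.0835). Rps27a, which encodes ubiquitin fused to a ribosomal protein, was at 522, 482 and 456 CPM and 299.5, 214 and 192 CPM and fell (-1.05 ± 0.25, edgeR adjusted p = 0.0344). Uchl5, a deubiquitinase of the 19S particle, was at 26, 20.6 and 19.1 CPM and 9.61, 12.3 and 11.6 CPM and fell as well (-0.97 ± 0.23, edgeR adjusted p = 0.0358). The calls of Ubqln4, Rps27a and Uchl5 were lost without the second vehicle library, without the second rebamipide library and without the third rebamipide library (edgeR adjusted p of 0.0713 to 0.155). Without the first vehicle library Ubqln4 alone of these 3 stayed called, and without the third vehicle library Rps27a was lost (edgeR adjusted p = 0.0674).

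Other partners did not pass. Adrm1 (Rpn13), the 19S subunit that docks Uchl5, was at 69.2, 54.5 and 55 CPM with vehicle and 78.8, 108 and 95.3 CPM with rebamipide (0.66 ± 0.20, edgeR adjusted p = 0.0631), opposite in sign to Uchl5. Nfe2l1 encodes NRF1, the transcription factor known to raise proteasome genes when the proteasome is impaired. It was at 241, 437 and 474 CPM and 683, 823 and 822 CPM, without overlap (1.02 ± 0.32, edgeR adjusted p = 0.0688, DESeq2 adjusted p = 0.0214). The maturation factor of the core, Pomp (-0.13 ± 0.16, edgeR adjusted p = 0.552), and the small lid subunit Sem1 (-0.03 ± 0.17, edgeR adjusted p = 0.903) overlapped between the groups.

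Of 14 interferon and peptide loading genes 13 were tested, and 1 rose, where 14.1% of all genes did. Ifng, the gene of interferon gamma itself, had 3, 8, 2, 1, 2 and 2 counts in the 6 libraries and was not tested. The peptide loading genes Tapbp (0.86 ± 0.29, edgeR adjusted p = 0.0791) and Tap2 (0.88 ± 0.32, edgeR adjusted p = 0.0965) did not pass, nor did Irf1 (0.73 ± 0.32, edgeR adjusted p = 0.138), and all 3 lay above in every rebamipide library. In all, 5 of the 13 did, where 24.5% of all genes did, and none lay below. The regulators Irf8 (-0.57 ± 0.68, edgeR adjusted p = 0.553), Nlrc5 (-0.51 ± 0.43, edgeR adjusted p = 0.402) and Ciita (-1.002 ± 0.62, edgeR adjusted p = 0.267) had negative log2 fold changes and overlapped between the groups. Tap1, the neighbour of Psmb8 and Psmb9 on chromosome 17, was at 24.2, 41 and 37.8 CPM and 55.4, 23 and 21.5 CPM, with overlap (-0.04 ± 0.44, edgeR adjusted p = 0.947). The median of the 13 was 0.13 with TMM and -0.43 by total counts.

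**Figure D5:**
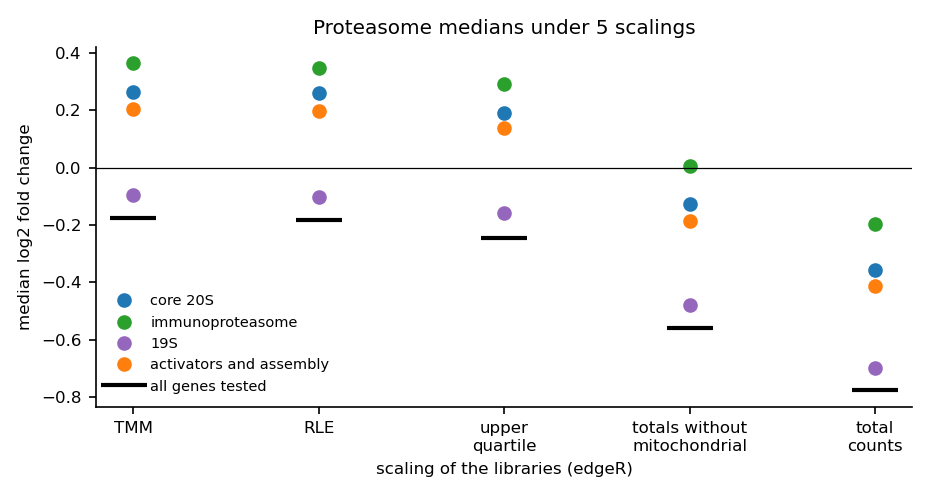
Median log2 fold change (y axis, rebamipide over vehicle) of the core, inducible, 19S and activator and assembly genes and of all genes tested (black dashes), under 5 scalings of the libraries in edgeR (x axis). The core median goes from 0.26 with TMM to -0.36 by total counts while it stays 0.44 and 0.42 above the median of all genes.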

How the data were processed

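Samples labelled as skin (full-thickness by the study), of 3 vehicle and 3 rebamipide mice, were sequenced after poly-A selection. The third rebamipide library lacked epidermal markers, and its tissue is in doubt. The authors deposited whole read counts per gene, not normalized, and FPKM. These FPKM follow from counts, gene length and library total (largest relative difference 5.1e-14). The submitters' processing notes name fastp 0.22.0, HISAT2 2.1.0, HTSeq 0.9.1 and the build GRCm39, and the study's methods name DESeq2 with an unadjusted p-value and an absolute log2 fold change over 1. The annotation release is not given in the sources used here. Since 0 of 51 proteasome genes start within 1000 bases of their GRCm38 position, table positions and RefSeq GRCm38.p6 promoters were not mixed.

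Columns were matched to samples through their names. Libraries of a group were no duplicates (chi-square over degrees of freedom 79.1 to 714). The labels do not say more of each sample than its group and number, so p-values measure the spread between these libraries. Genes were fitted together in R 4.3.3 with edgeR 4.0.16 (TMM, filterByExpr, quasi-likelihood test, Benjamini-Hochberg adjustment over 14875 genes). DESeq2 1.42.0 and limma 3.58.1 (voom, and log2(FPKM + 1)), other scalings and filters, a replicate block and each library left out were alternatives. Ratios of catalytic pairs were tested with two-sided exact permutation tests. On simulated counts with a dispersion (spread beyond counting error) of 0.1, edgeR recovered 18% of genes changed by a fold of 2 and 95% at a fold of 4. DESeq2 recovered 23% and 95%, and limma-voom 14% and 93%. A ± is the standard error of the edgeR fit or the SD over the 3 libraries of a group. A count of 0 allows up to 3 counts, a limit that covers counting error only.

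The members, the related, interferon and marker lists and the tests were chosen with earlier results of these data known. Named with values are the catalytic pairs, each activator, inhibitor and chaperone, the tissue-restricted and other name matches, the 3 core and 3 19S subunits of smallest p, their highest and lowest by FPKM, the 5 related and 3 interferon genes of smallest p, and Nfe2l1, Pomp, Adrm1, Sem1, Ifng, Irf1 and Tap1. Some genes that fall under these rules are counted in their lists but not reported here. Psma5, Psmb4, Psmc1 and Psmc2 were added with their values known. The 5 genes outside the members most like the core and the inducible subunits are those with the highest Pearson correlation of log2 CPM with the mean scaled profile, among genes of at least 10 CPM on average.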

Additional observations from a re-analysis of the deposited data

How the results depend on the processing

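Counts of calls moved with the tool and with the scaling, and so did those of all genes (14.1% higher and 6.51% lower in edgeR with TMM, 18.3% and 17.0% with DESeq2, 8.45% and 25.2% by total counts, 9.64% and 15.6% by totals without mitochondrial genes and no TMM, 16.5% and 12.03% with at least 10 counts in every library, and 9.42% and 32.3% with limma on log2(FPKM + 1)). DESeq2 called 4 core, 2 19S and 3 activator or assembly genes higher and 6 related and 2 interferon genes, and limma-voom called 1 core and 2 activator or assembly genes higher. Activator or assembly genes called higher, 1 with TMM, were 0 with RLE, upper quartile, total counts, totals without mitochondrial genes, no filter, at least 10 counts in every library and limma on log2(FPKM + 1), and 0 at an unadjusted p under 0.05 with an absolute log2 fold change over 1. Called lower by total counts were 2 core, 6 19S and 11 related genes, with 0 related genes higher and 0 interferon genes. By totals without mitochondrial genes 3 19S and 5 related genes were lower and 1 related gene was higher, and with at least 10 counts in every library 4 related genes were lower. Limma on log2(FPKM + 1) called 4 core, 10 19S, 2 activator or assembly and 12 related genes lower, 0 related genes higher and 0 interferon genes. At the threshold with an absolute log2 fold change over 1, 1 related gene was lower. The median log2 fold change was -0.36 (core), -0.70 (19S) and -0.20 (inducible) by total counts, -0.13 and -0.48 (core and 19S) by totals without mitochondrial genes, -0.35 and -0.71 with limma on log2(FPKM + 1), and 0.15 (core) with at least 10 counts in every library. The cause was not tested.

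With 1 library left out in turn edgeR called 0 to 4781 of all genes and DESeq2 3516 to 7846. In edgeR core genes called higher ranged from 0 to 5, 19S genes higher from 0 to 2, activator or assembly genes higher from 0 to 2 and lower from 0 to 1, related genes higher from 0 to 7 and lower from 0 to 2, and interferon genes from 0 to 1. With DESeq2, added after the data were seen, core genes higher ranged from 0 to 7, inducible genes from 0 to 1, 19S genes higher from 0 to 3 and lower from 0 to 1, activator or assembly genes higher from 0 to 4 with 1 lower, related genes higher from 3 to 9 (8 without the first vehicle library) and lower from 2 to 5, and interferon genes from 1 to 5. Across the omissions the log2 ratio of Psmb8 to Psmb5 differed between the groups by -0.69 to 0.12, that of Psmb9 to Psmb6 by -0.34 to 0.38 and that of Psmb10 to Psmb7 by -0.052 to 0.57. Omissions also turned the sign of genes near 0, with log2 fold changes of Psma5 -0.20 to 0.011, Psma7 -0.12 to 0.022, Psmb8 -0.14 to 0.65, Psmd11 -0.010 to 0.12, Psmg2 -0.16 to 0.13, Psmg3 -0.13 to 0.077, Sem1 -0.14 to 0.077 and Tap1 -0.62 to 0.20.

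The replicate numbers did not pair the libraries, since the deviations of same-numbered libraries from their group means correlated at -0.073, -0.028 and -0.039. With the replicate block edgeR called 2287 genes in place of 3061, 0 activator or assembly genes higher and 1 lower, 0 related genes higher and 1 lower, and 0 interferon genes, and Psme2b was no longer called (adjusted p = 0.0581). No library correlated best with its own number.

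Positive 19S log2 fold changes, 7 with TMM, were 5 with upper quartile factors and with at least 10 counts in every library, 2 by totals without mitochondrial genes and no TMM, and 0 by total counts and with limma on log2(FPKM + 1), where Psmc1, Psmc4, Psmd2 and Psmd3 turned beside those listed next. Of the core subunits and the genes given with values, signs turned by total counts alone for Psma1 -0.21, Psma2 -0.53, Psma3 -0.42, Psma4 -0.53, Psmb1 -0.53, Psmb2 -0.034, Psmb3 -0.062, Psmb4 -0.53, Psmb5 -0.076, Psmb6 -0.30, Psmb7 -0.15, Psmb8 -0.26, Psmb9 -0.20, Psmd4 -0.068, Psmd8 -0.049, Psmd11 -0.56, Psme3 -0.34, Psmf1 -0.40, Psmg4 -0.25, Psmd5 -0.50, Psmd9 -0.43, Psmd10 -0.47 and Psme3ip1 -0.40. With limma on log2(FPKM + 1) they turned for Psma1 -0.21, Psma2 -0.51, Psma3 -0.41, Psma4 -0.52, Psmb1 -0.52, Psmb2 -0.017, Psmb3 -0.054, Psmb4 -0.52, Psmb5 -0.074, Psmb6 -0.30, Psmb7 -0.14, Psmb8 -0.24, Psmb9 -0.17, Psmd4 -0.065, Psmd8 -0.043, Psmd11 -0.53, Psme3 -0.28, Psmf1 -0.32, Psmg4 -0.21, Psmd5 -0.41, Psmd9 -0.33, Psmd10 -0.44 and Psme3ip1 -0.35. By totals without mitochondrial genes and no TMM, an alternative added after the data were seen, they turned for Psma2 -0.30, Psma3 -0.19, Psma4 -0.30, Psmb1 -0.30, Psmb4 -0.30, Psmb6 -0.070, Psmb8 -0.062, Psmd11 -0.33, Psme3 -0.11, Psmf1 -0.17, Psmg4 -0.009, Psmd5 -0.26, Psmd9 -0.20, Psmd10 -0.24 and Psme3ip1 -0.17. With at least 10 counts in every library they turned for Psma2 -0.016, Psma4 -0.020, Psmb1 -0.022, Psmb4 -0.019 and Psmd11 -0.051, and with upper quartile factors for Psmd11 -0.012. Paaf1 and Krt85 were not under those symbols in the table and were not analysed here.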

Other observations

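The genes outside the proteasome whose profile over the 6 libraries was most like the mean profile of the 14 core subunits were Ube2j2, Eef1akmt1, Tarbp2, Sbk1 and Kansl2, with Pearson correlations of 0.995, 0.995, 0.992, 0.99 and 0.988 among 9781 genes searched. Ube2j2, which encodes a ubiquitin-conjugating enzyme of the endoplasmic reticulum, was at 37.0, 30.8 and 32.0 CPM with vehicle and 39.2, 43.0 and 38.8 CPM with rebamipide, and its groups did not overlap. The genes most like the 3 inducible subunits were Nipsnap2, Atg9a, Tpi1, Fgf1 and Aldoa, with correlations of 0.996, 0.994, 0.994, 0.993 and 0.992. Of these Aldoa and Tpi1 encode glycolytic enzymes, and Aldoa was at 943, 2582 and 3307 CPM with vehicle and 5037, 2792 and 2067 CPM with rebamipide. The 8 fast muscle markers summed to 5985 to 30910 CPM with vehicle and to 304 to 39500 CPM with rebamipide. The correlations share the libraries and their scaling, and they are given as a description.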
